A study of Mus musculus with 8 samples.

Results

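Mural cells, the vascular smooth muscle cells and pericytes that wrap blood vessels, were followed through 10 of their genes by bulk RNA-seq of brown adipose tissue (BAT), the thermogenic fat depot. The members were listed by name, 6 contractile genes of smooth muscle (Acta2, Tagln, Myh11, Cnn1, Myl9 and Smtn) and 4 genes of pericytes (Rgs5, Notch3, Mcam and Cspg4), and all 10 were found among the 31053 Ensembl genes of the count table. There were 4 libraries labelled WT and 4 labelled Cd36KO, all from BAT of C57BL6/J mice labelled as 8 weeks old. The Cd36KO label names no Cre driver. The study describes a germline deletion of CD36, a scavenger receptor for lipids and vesicles, as well as a myeloid one driven by Csf1r-Cre in macrophages, attributes its BAT transcriptome to the latter, and gives them the labelled age in one place and a later age in another. No mouse received any other treatment according to the labels, and nothing in them says whether a library pooled animals. Replicate numbers ran from 1 to 4 in WT, whereas 1 of the Cd36KO columns had no number (the unnumbered Cd36KO library).

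Smooth muscle cells line arteries and arterioles and set their width by contraction, while pericytes sit on capillaries and small venules, within the basement membrane they share with the endothelium. Both cell types depend on PDGF-B from the endothelium and on Notch3 signalling, and the contractile genes of smooth muscle are switched on by serum response factor (SRF) with its partner myocardin at a DNA element called the CArG box. BAT is one of the most densely vascularised tissues of the body, and its blood flow rises with thermogenesis. Several contractile proteins of smooth muscle have close relatives in skeletal muscle, and muscle lies next to the interscapular fat pad, so the first question was whether the mural genes could be told apart from skeletal muscle counts.

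The targeted gene was checked first. Cd36 had 2796, 2958, 3505 and 2412 normalized counts (counts divided by the size factor of the library) in WT replicates 1 to 4, and 1926, 2109, 2384 and 1930 in the unnumbered Cd36KO library and replicates 2, 3 and 4. All Cd36KO libraries lay below all WT libraries, but the transcript remained in each of them (log2 fold change -0.48, DESeq2 adjusted p = 0.0602, exact two-sided permutation p = 0.0286). With the mean level of skeletal muscle genes (the skeletal muscle score) as a covariate Cd36 was at -0.66 and passed (adjusted p = 0.0440), and with edgeR it did not pass (adjusted p = 0.191). Total counts ranged from 2679785 to 4097953 per library. The labels name the stromal vascular fraction beside BAT, yet Ucp1, the uncoupling protein of brown adipocytes, had at least 4235 normalized counts in every library. The study describes its mice as male, whereas Xist had 772 to 1588 counts and Uty 0 in each of the 8 libraries.

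The coding sequences of smooth muscle alpha-actin (Acta2) and skeletal muscle alpha-actin (Acta1) are compared first, as the smooth and skeletal muscle forms of alpha-actin. Both hold 1134 bases, and 85.4% of these were identical, with 166 mismatches and no identical run longer than 29 bases. The first 90 coding bases of each, from GENCODE release M21 on GRCm38, are shown with the 22 mismatched bases in capitals.
Acta2: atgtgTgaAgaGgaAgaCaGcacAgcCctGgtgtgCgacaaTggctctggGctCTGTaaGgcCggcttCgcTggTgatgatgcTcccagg
Acta1: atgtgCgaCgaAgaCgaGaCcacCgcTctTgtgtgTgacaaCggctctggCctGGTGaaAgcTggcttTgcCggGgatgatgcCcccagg
A read of 75 bases, the length given for the sequencing run, spans mismatches between both actins wherever it falls in their coding part. All 75-base windows of the members' annotated transcripts were then searched in the transcripts of every other gene. Of the 10 members, 0 had a window on the same strand in another gene. On the opposite strand, Tagln shared 53.3% of its windows with Pcsk7 and Gm48529, Smtn shared 6.57% with Gm11946 and Notch3 shared 4.23% with Gm17276. The strand setting of the counting is not stated, so the value of Tagln is the least certain of the 10. Gm10687 overlaps the Mcam locus on the opposite strand but shares no window with it. Pcsk7, the gene that overlaps Tagln, had from 1.98 to 22.3 normalized counts per library.

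Skeletal muscle content varied far more between libraries than the mural genes did. Sums over a list are given in CPM, which is counts relative to the library total. The 31 skeletal muscle genes summed to 34155 CPM in WT replicate 1, 5831 in replicate 2, 473 in replicate 3 and 5029 in replicate 4. In Cd36KO they summed to 3503 CPM in the unnumbered library and to 171, 173 and 973 in replicates 2, 3 and 4. The list was led by Ttn, Acta1 and Myh4, of which Myh4, a fast myosin heavy chain, went from 9887 normalized counts in WT replicate 1 to 4.09 in Cd36KO replicate 3. The list's sum had a 200-fold span between the highest and the lowest library, and WT replicate 1 alone had 3.42% of its counts in these genes. Over the same libraries, the 6 contractile members together spanned 3.69-fold, from 50.96 CPM in WT replicate 4 to 188 CPM in WT replicate 1. The 4 pericyte members spanned 2.91-fold, from 162 CPM in the unnumbered Cd36KO library to 472 CPM in WT replicate 1. Both sums were thus highest in the library with most muscle, yet WT replicate 4, with 5029 CPM of muscle genes, had the lowest contractile sum.

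**Figure D1:**
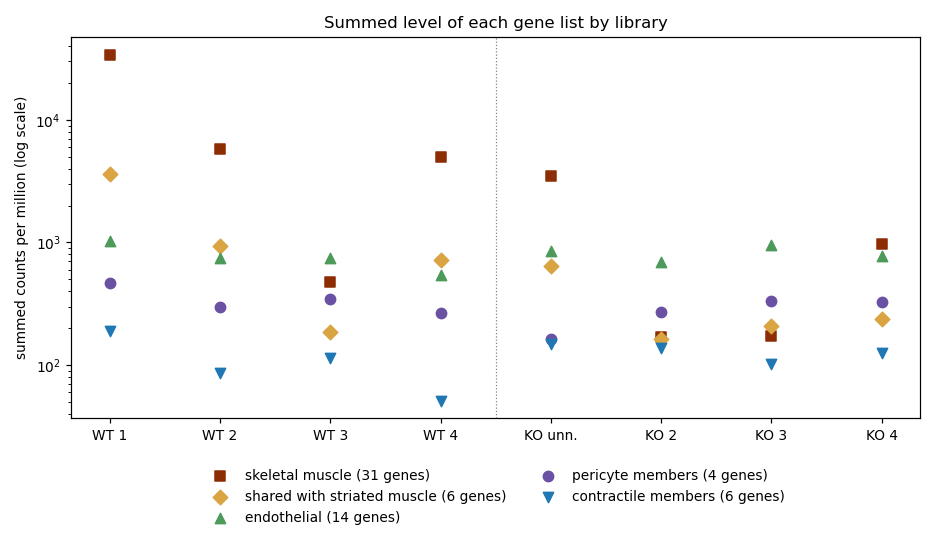
Summed CPM (log axis) of 5 gene lists in the 4 WT and 4 Cd36KO libraries, 1 point per list and library. The skeletal muscle sum runs from 171 to 34155 CPM, while the contractile members stay between 50.96 and 188 CPM and the pericyte members between 162 and 472 CPM.

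The spread of single genes was compared next. The ratio of the highest to the lowest library, with counts under 3 set to 3, had a median of 3.12 over the 10 members and ranged from 2.02 for Cspg4 to 12.7 for Cnn1. The median was 2.21 over the 9619 genes with an adjusted p. For the 30 skeletal muscle genes with an adjusted p the median was 223, and the lowest was 10.3. The genes that smooth and striated muscle share, such as desmin (Des) and the tropomyosins Tpm1 and Tpm2, followed the muscle libraries, with a median ratio of 14.8 over 5 genes. WT replicate 1 was the highest library for 30 of 30 skeletal muscle genes and for 5 of 5 shared genes. It was the highest for 4 of the 10 members (Acta2, Tagln, Smtn and Rgs5), against 18.8% of all genes tested.

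**Figure D2:**
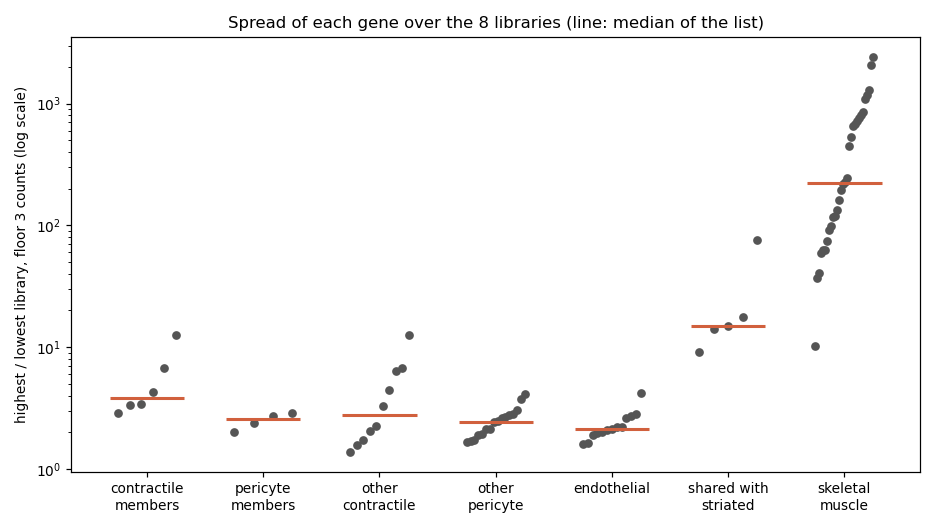
Ratio of the highest to the lowest library for each gene with an adjusted p (log axis, counts under 3 set to 3), 1 point per gene, in 7 gene lists, with the median of each list as a line. The medians are 3.84 for contractile members, 2.56 for pericyte members, 14.8 for genes shared with striated muscle and 223 for skeletal muscle genes.

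The comparison of Cd36KO with WT asked whether mural cell transcripts of BAT differed between libraries of these labels. None of the 10 members was called, as 0 passed an adjusted p of 0.05 in DESeq2, where 2.95% of 9619 genes did, 1.42% higher and 1.53% lower in Cd36KO. That background itself rested on single libraries, from 69 of 10170 genes without WT replicate 2 to 507 of 6215 without WT replicate 4. Fold changes split evenly, with 5 members higher and 5 lower, and their median log2 fold change was -0.03, beside -0.01 over all genes tested. At an unadjusted p under 0.05 there were 4 members, which were Cnn1, Myl9, Mcam and Cspg4, where 15.6% of all genes tested reached that level. The edgeR quasi-likelihood test also called 0 of 10 at its adjusted threshold, which 0.143% of genes passed, with 4 members under an unadjusted 0.05. At that unadjusted level edgeR had 16.1% of all its genes. Limma on the authors' log2 values called 0 of 9957 genes (0.0%), so its 0 members called hold no information, and it had 3 members and 15.6% of genes under an unadjusted 0.05. All 10 members had overlapping groups, while 8.76% of the genes tested had groups that did not overlap. In a bulk sample, fewer mural cells and less RNA per mural cell cannot be told apart.

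**Figure D3:**
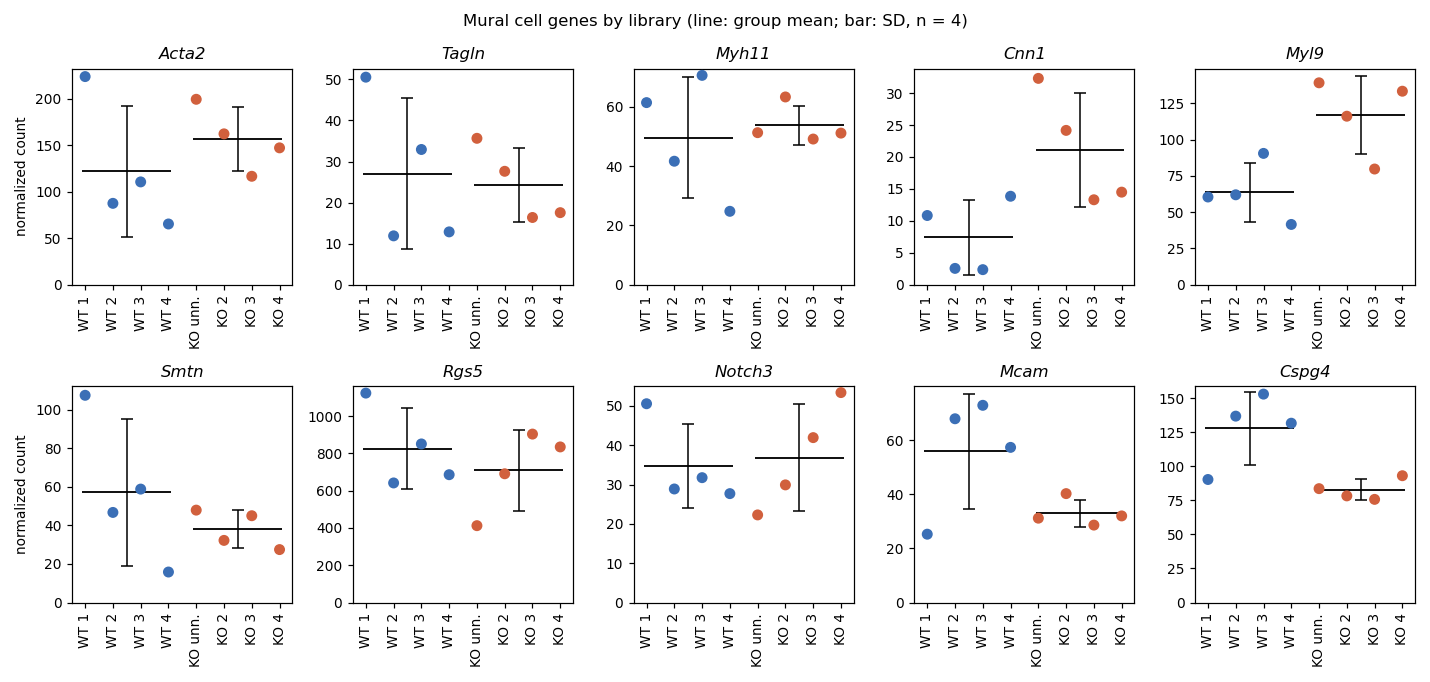
Normalized counts (axis from 0) of the 10 members in each library, with WT in blue and Cd36KO in orange, the group mean as a line and its SD as a bar (n = 4 each). Myl9 and Cnn1 sit mostly higher and Cspg4 and Mcam mostly lower in Cd36KO, and the groups overlap in all 10 panels.

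Among the contractile members, Myl9 came nearest to the threshold. It encodes the regulatory light chain of smooth muscle myosin, whose phosphorylation starts contraction (ENSMUSG00000067818, GRCm38 chromosome 2, 156775420 to 156781658, plus strand). Its normalized counts were 60.5, 62.0, 90.6 and 41.5 in WT replicates 1 to 4, and 139, 116, 79.8 and 133 in the unnumbered Cd36KO library and replicates 2, 3 and 4. All Cd36KO libraries but replicate 3 lay above every WT library, and that one lay between WT replicates 2 and 3. The WT mean was 63.6 ± 20.2 and the Cd36KO mean 117 ± 26.8 (SD, n = 4 each). The log2 fold change was 0.89 (SE 0.28), with a DESeq2 adjusted p of 0.0511 (exact two-sided permutation p = 0.0571). Myl9 passed with TMM factors (0.88, adjusted p = 0.0440), under a filter of 10 counts in 4 libraries (0.88, adjusted p = 0.0479), without WT replicate 3 (1.10, adjusted p = 0.0242) and without Cd36KO replicate 3 (1.04, adjusted p = 0.0300). Over all alternatives its adjusted p ranged from 0.0242 to 0.673, and its direction was kept in all 16. With the skeletal muscle score as a covariate its log2 fold change was 0.87 and did not pass (adjusted p = 0.252), nor did it with edgeR (adjusted p = 0.137).

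The promoter of Myl9 was the only one of 8 member promoters in the RefSeq table with an exact CArG box (CC, 6 bases A or T, GG). The search covered both strands of the 300 bases around the start site, and 1.63% of 32851 promoters held such a box. Boxes that differ from these letters were not searched for, so members without an exact box may still hold one. Tagln and Myh11 had no promoter in the RefSeq table. The stretch is shown because Myl9 is the member nearest to a call, with the CArG box in capitals. The box starts 161 bases before the RefSeq transcription start, which lies downstream of the first base that GENCODE gives for the gene, and the stretch is at chr2:156775283-156775332 (GRCm38.p6, plus strand).
Myl9: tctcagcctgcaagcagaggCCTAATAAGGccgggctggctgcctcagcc
The letters TGGGAA, the core bound by the Notch effector RBPJ, were found on either strand in the promoters of Acta2 and Smtn, 2 of 8, where 25.6% of all promoters held them. The pericyte members with a promoter in the table, 4 in all, held 0 of either motif in this window.

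Cnn1 encodes calponin, an actin-binding protein of differentiated smooth muscle (ENSMUSG00000001349, GRCm38 chromosome 9, 22099216 to 22109630, plus strand). It had few reads, from 2 to 29 counts per library. Normalized counts were 10.8, 2.55, 2.35 and 13.8 in WT replicates 1 to 4. They were 32.3 in the unnumbered Cd36KO library and 24.2, 13.3 and 14.5 in replicates 2, 3 and 4. Only Cd36KO replicate 3 did not lie above WT replicate 4, the highest WT library. The means were 7.40 ± 5.84 and 21.1 ± 8.94 (SD, n = 4 each), and the log2 fold change was 1.49 (SE 0.60), with a 95% interval from 0.32 to 2.67. With the skeletal muscle score as a covariate it was 2.29, without an adjusted p. In the fit without the score it did not pass (DESeq2 adjusted p = 0.164, exact two-sided permutation p = 0.0571).

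Acta2, smooth muscle alpha-actin, is the usual marker of smooth muscle cells and of myofibroblasts (ENSMUSG00000035783, GRCm38 chromosome 19, 34241090 to 34255590, minus strand). Its normalized counts were 224, 87.5, 111 and 65.3 in WT replicates 1 to 4 and 199, 162, 117 and 147 in the unnumbered Cd36KO library and replicates 2, 3 and 4. WT replicate 1 was the highest of the 8 libraries, and the other WT libraries lay below all Cd36KO libraries. The group means were 122 ± 70.5 and 156 ± 34.4 (SD, n = 4 each), and the log2 fold change was 0.36 (SE 0.34, DESeq2 adjusted p = 0.674). Without WT replicate 1 it was 0.83 and passed (adjusted p = 0.0429), and with the skeletal muscle score as a covariate it was 0.81 and did not (adjusted p = 0.325). It fell to 0.15 without WT replicate 4, 0.22 without the unnumbered Cd36KO library and 0.23 without WT replicate 2. Over the 16 alternatives the DESeq2, edgeR and limma adjusted p of Acta2 ranged from 0.0429 to 0.961. Acta1 had 9349 normalized counts in WT replicate 1 and 155 in WT replicate 3, where Acta2 had 224 and 111.

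Myh11, the smooth muscle myosin heavy chain and the most specific of the contractile markers, showed no difference past the threshold (ENSMUSG00000018830, GRCm38 chromosome 16, 14194535 to 14291372, minus strand). Its normalized counts were 61.4, 41.6, 70.6 and 24.7 in WT replicates 1 to 4 and 51.3, 63.3, 49.1 and 51.1 in the unnumbered Cd36KO library and replicates 2, 3 and 4. All Cd36KO values lay inside the WT range. The log2 fold change was 0.12 with a 95% interval from -0.52 to 0.76 (DESeq2 adjusted p = 0.917). The highest WT library, replicate 3, held the fewest skeletal muscle counts of the WT libraries.

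Tagln, transgelin or SM22-alpha, binds actin filaments (ENSMUSG00000032085, GRCm38 chromosome 9, 45929619 to 45936058, minus strand). It had 50.6, 11.9, 32.9 and 12.9 normalized counts in WT replicates 1 to 4, and 35.7, 27.6, 16.4 and 17.5 in the unnumbered Cd36KO library and replicates 2, 3 and 4. Cd36KO values fell between the WT extremes. The log2 fold change was -0.16 with a 95% interval from -1.14 to 0.82 (DESeq2 adjusted p = 0.928), and its sign turned in 5 of 16 alternatives.

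Smtn, smoothelin, is a cytoskeletal protein of contractile smooth muscle (ENSMUSG00000020439, GRCm38 chromosome 11, 3517523 to 3540612, minus strand). Its normalized counts were 107, 46.7, 58.8 and 15.8 in WT replicates 1 to 4 and 47.9, 32.2, 45.01 and 27.5 in the unnumbered Cd36KO library and replicates 2, 3 and 4. WT replicate 1 stood at 107 and the other WT libraries at 15.8 to 58.8, a range that held all Cd36KO libraries. The log2 fold change was -0.59 (SE 0.45, DESeq2 adjusted p = 0.573), and leaving out 1 library moved it from -0.90 without WT replicate 4 (adjusted p = 0.103) to -0.09 without WT replicate 1.

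Among the pericyte members, Rgs5, a regulator of G-protein signalling and the classical pericyte transcript (ENSMUSG00000026678, GRCm38 chromosome 1, 169655501 to 169695813, plus strand), had 1123, 641, 850 and 685 normalized counts in WT replicates 1 to 4. In Cd36KO it had 412 in the unnumbered library and 690, 903 and 834 in replicates 2, 3 and 4. The groups overlapped over most of their range, and the unnumbered library was the lowest of the 8. The log2 fold change was -0.22 (SE 0.25), with a 95% interval from -0.71 to 0.28 (DESeq2 adjusted p = 0.760). Leaving out 1 library moved it from -0.35 without Cd36KO replicate 3 to -0.03 without the unnumbered library or without WT replicate 1.

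Notch3, the receptor by which mural cells sense Jagged ligands on endothelium (ENSMUSG00000038146, GRCm38 chromosome 17, 32120820 to 32166852, minus strand), had 50.6, 28.9, 31.8 and 27.7 normalized counts in WT replicates 1 to 4. In Cd36KO it had 22.3 in the unnumbered library, followed by 29.9, 41.9 and 53.4 in replicates 2, 3 and 4. The lowest and the highest of the 8 values were both in Cd36KO. The log2 fold change was 0.10 (SE 0.36, DESeq2 adjusted p = 0.938), and leaving out 1 library moved it from -0.14 without Cd36KO replicate 4 to 0.34 without WT replicate 1.

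Cspg4, the NG2 proteoglycan of the pericyte surface that is also found on progenitor cells (ENSMUSG00000032911, GRCm38 chromosome 9, 56865033 to 56899870, plus strand), was lower in most Cd36KO libraries. It had 90.3, 137, 153 and 132 normalized counts in WT replicates 1 to 4, and 83.6, 78.2, 75.7 and 93.0 in the unnumbered Cd36KO library and replicates 2, 3 and 4. WT replicate 1 was the only WT library within the Cd36KO range, by less than 3 counts. The means were 128 ± 26.7 and 82.6 ± 7.68 (SD, n = 4 each), and the log2 fold change was -0.62 (SE 0.23). It did not pass (DESeq2 adjusted p = 0.109, exact two-sided permutation p = 0.0571). Without WT replicate 1 the log2 fold change was -0.76 and passed (adjusted p = 0.0284), and the 16 alternatives gave adjusted p values from 0.0284 to 0.396.

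Mcam, the adhesion molecule CD146 of pericytes, smooth muscle and endothelium (ENSMUSG00000032135, GRCm38 chromosome 9, 44134469 to 44142727, plus strand), was likewise lower in Cd36KO than in most WT libraries. Its normalized counts were 25.3, 67.9, 72.9 and 57.4 in WT replicates 1 to 4 and 31.2, 40.3, 28.6 and 32.03 in the unnumbered Cd36KO library and replicates 2, 3 and 4. WT replicate 1 was the lowest of all 8 libraries, and the other WT libraries lay above every Cd36KO library. The means were 55.9 ± 21.4 and 33.0 ± 5.04 (SD, n = 4 each), and the log2 fold change was -0.76 (SE 0.35). It did not pass (DESeq2 adjusted p = 0.253, exact two-sided permutation p = 0.143), but did without WT replicate 1 (-1.003, adjusted p = 0.0406). Its 16 alternatives gave adjusted p values from 0.0406 to 0.606.

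**Figure D4:**
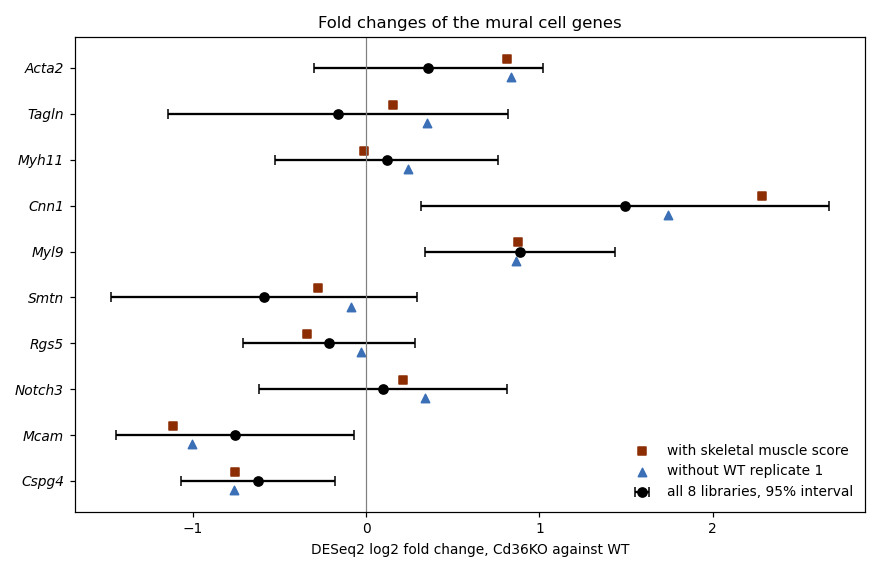
DESeq2 log2 fold change of Cd36KO against WT for the 10 members with its 95% interval (black), and the estimate with a skeletal muscle score as covariate (squares) or without WT replicate 1 (triangles). Without WT replicate 1 the estimate of Acta2 moves from 0.36 to 0.83 and that of Mcam from -0.76 to -1.003, while that of Myl9 is 0.86.

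In the fits that left out 1 library, the calls of 3 members thus turned on WT replicate 1. Without it, Acta2 passed upwards and Mcam and Cspg4 downwards, so that 3 of 10 members were called, in a fit that called 345 of 10284 genes. Among other mural genes, Cald1 and Aoc3 then passed downwards and Adra1a upwards. The 6 libraries with shared replicate numbers, fitted without a block, also lack WT replicate 1, as well as the unnumbered Cd36KO library. There 0 members were called (DESeq2 adjusted p = 0.234 for Acta2, 0.130 for Mcam and 0.0846 for Cspg4). The members that passed moved in opposite directions, and with the skeletal muscle score as a covariate in all 8 libraries 0 of them passed, although their log2 fold changes were no smaller than in the fit without it, at 0.81 for Acta2, -1.11 for Mcam and -0.76 for Cspg4. WT replicate 1 had the highest skeletal muscle sum. By Dixon's criterion, applied only to sums on the log2 scale, it was not distant from the other WT libraries. Against the other WT libraries its counts gave chi-square values of 34.5 to 55.6 per degree of freedom, compared with 7.54 to 16.4 among the others, and it had the lowest share of mitochondrial genome counts, 23.4% against 27.7% to 32.1% in the other 7 libraries. Its endothelial sum was 1020 CPM, the highest of the 8 libraries, whose range was 548 to 1020. The part of muscle, vessel content or any other property of this library in these values was not tested.

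Other genes of the mural programme were read from lists of 72 genes, of which 71 had any count and 51 an adjusted p. Of these 51, 0 passed upwards, where 1.42% of all genes did, and 1 downwards, where 1.53% did, so the count is near the background. Fold changes were positive for 18 and negative for 33, beside 4729 and 4890 of all genes tested. The groups did not overlap for 4 of the 51 (Synpo2, Kcnj8, Adra1a and Mrtfa), a share below the 8.76% of all genes tested. The gene that passed was Synpo2, synaptopodin 2, an actin-bundling protein of smooth and striated muscle. It had 152, 50.1, 44.7 and 46.5 normalized counts in WT replicates 1 to 4 and 33.4, 12.7, 10.2 and 24.4 in the unnumbered Cd36KO library and replicates 2, 3 and 4. All Cd36KO values lay below all WT values, and Synpo2 fell by 1.86 on the log2 scale (DESeq2 adjusted p = 0.0106, exact two-sided permutation p = 0.0286, the lowest possible with 4 libraries a group). With the skeletal muscle score as a covariate its log2 fold change was -0.88 and did not pass (adjusted p = 0.389), and edgeR gave an adjusted p of 0.115. It also did not pass with limma, under the replicate block, without WT replicate 1 or without Cd36KO replicate 3, while the 6 libraries of the block fitted without it gave -1.55 (adjusted p = 0.0294). Synpo2 is among the 6 genes shared with striated muscle, whose 5 tested members all had negative fold changes, with a median of -1.75. With the muscle score that median was 0.07.

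The other contractile genes, among them Mylk, the kinase of the myosin light chain, and Cald1, caldesmon, had 0 calls among 10 tested. Their median log2 fold change was -0.45, and -0.29 with the muscle score. Their summed level was lower in all Cd36KO libraries, 602 to 678 CPM, than in all WT libraries, 746 to 998 CPM (exact two-sided permutation p = 0.0286). This sum includes Aoc3, an amine oxidase that adipocytes also express, which did not pass on its own (log2 fold change -0.80, DESeq2 adjusted p = 0.0967) but did under the replicate block, in the same 6 libraries without the block, with the muscle score and without WT replicate 1. Without Aoc3, a choice made after its values were seen, the sums were 421 to 449 CPM in Cd36KO and 495 to 573 CPM in WT. Several genes of this list, such as Myl6 and Ppp1r12a, are expressed in most cell types. The 6 contractile members themselves summed to 110 ± 58.3 CPM over the WT libraries and 128 ± 20.6 CPM over the Cd36KO libraries (SD, n = 4 each), with groups that overlapped.

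The other pericyte genes had 0 calls among 16 tested and a median log2 fold change of 0.00. In this list were Pdgfrb, the receptor for PDGF-B, with a WT mean of 35.1 ± 25.5 and a Cd36KO mean of 32.8 ± 2.46 normalized counts (SD, n = 4 each), and the subunits of a potassium channel of pericytes, Kcnj8 and Abcc9. Kcnj8 had a WT mean of 37.4 ± 5.88 and a Cd36KO mean of 51.8 ± 5.08 normalized counts (SD, n = 4 each), with all Cd36KO values above all WT values but a DESeq2 adjusted p of 0.407. Abcc9 had a log2 fold change of -0.60 (DESeq2 adjusted p = 0.327), opposite in sign to its partner. Without WT replicate 4 Abcc9 passed (-0.81, DESeq2 adjusted p = 0.0393), in a fit that called 507 of 6215 genes. Adra1a, an alpha-1 adrenergic receptor that brown adipocytes also carry, had a WT mean of 230 ± 35.2 and a Cd36KO mean of 312 ± 13.4 normalized counts (SD, n = 4 each), with groups that did not overlap and a DESeq2 adjusted p of 0.137.

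Regulators of the contractile genes gave 0 calls among 6 tested. Srf itself had a log2 fold change of 0.12 (DESeq2 adjusted p = 0.903). Mrtfa, an actin-sensing SRF coactivator, had a WT mean of 16.8 ± 4.26 and a Cd36KO mean of 25.3 ± 1.19 normalized counts (SD, n = 4 each), with groups that did not overlap and a DESeq2 adjusted p of 0.463. Myocd, encoding myocardin, had from 0 to 4 counts per library, which was too few for an adjusted p. The Notch genes had 0 calls among 8 and the PDGF and angiopoietin genes 0 among 6. Jag1, the Jagged ligand of Notch3, had a log2 fold change of -0.70 and a DESeq2 adjusted p of 0.159. Heyl, a Notch3 target, had 0.06, and Pdgfb had 0.14.

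Vessel lining and mural genes were set side by side. The 14 endothelial genes had a WT sum of 766 ± 194 CPM and a Cd36KO sum of 819 ± 116 CPM (SD, n = 4 each). Their groups overlapped (exact two-sided permutation p = 0.629), and 0 of 13 tested were called, where 2.95% of all genes were. The 11 genes of stromal fibroblasts, which can also express Acta2 and Tagln, summed to 1938 to 2678 CPM in WT and 1114 to 1465 CPM in Cd36KO (exact two-sided permutation p = 0.0286). DESeq2 called 3 of the 11 lower, where 1.53% of all genes were. EdgeR called 1 of the 11 lower, where it called 0.143% of its genes in either direction. Without Gsn, gelsolin, left out after the values were seen, the sums were 766 to 1159 CPM in WT and 632 to 770 CPM in Cd36KO and overlapped (exact two-sided permutation p = 0.0571). The part of these genes in the mural values was not tested. Of the 10 brown adipocyte genes, 4 passed upwards, which were Ucp1 (0.82), Cidea (0.97), Cox8b (0.50) and Cox7a1 (0.59, log2 fold changes), and 0 downwards, where 1.42% and 1.53% of all genes did. EdgeR called 0 of the 10, and Cox8b and Cox7a1 did not pass with the muscle score (adjusted p = 0.158 and 0.136). Fabp4 (-0.73), with all Cd36KO values below all WT values, Plin1 (-0.45) and Adipoq (-0.27) had negative log2 fold changes that did not pass, although Fabp4 did with the muscle score (adjusted p = 0.0488). Their part in the mural values was not tested either. The 8 macrophage genes summed to 172 to 270 CPM and their groups overlapped. The 7 Schwann cell genes summed to 135 to 405 CPM.

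Outside the lists, the 5 genes whose levels over the 8 libraries followed the mean of the 6 contractile members most closely were Tceal9, Nxf1, Gpatch2, Zzef1 and Zfp282, of 5438 genes with a mean of at least 50 normalized counts. Their Pearson correlations over the 8 libraries ranged from 0.91 to 0.96, as the highest values of a search over all these genes in libraries that also share depth and scaling. Tceal9 had 250, 172, 246 and 145 normalized counts in WT replicates 1 to 4 and 263, 249, 214 and 204 in the unnumbered Cd36KO library and replicates 2, 3 and 4. None of the 5 is a mural cell gene of the lists, and 0 of 5 passed the DESeq2 threshold (adjusted p of 0.568 to 0.934).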

How the data were processed

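RNA of BAT was sequenced as single-end reads in 4 WT and 4 Cd36KO libraries. According to its methods section, reads were trimmed (bbduk), aligned to mm10 (STAR) and assigned to genes (HTSeq-count) by the authors' sequencing service. The submitters' processing notes list Trimmomatic, HISAT2 and DESeq2 instead. The deposited table holds whole-number counts, not normalized, with 2679785 to 4097953 per library. A second deposited table holds log2 values, which equal log2 of count over size factor plus 1. The floor of 3 counts covers counting error only. Symbols came from GENCODE M21 on GRCm38 for 30934 of 31053 identifiers.

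All genes were fitted in DESeq2 1.42.0 (Wald test, R 4.3.3) with genotype as the term, DESeq2 being the package the study used, and Benjamini-Hochberg adjustment (threshold 0.05) ran over the 9619 genes that independent filtering on mean count left (17361 without it, where Myl9 had an adjusted p of 0.0883). Intervals of 95% are 1.96 standard errors either side and include the spread between libraries. EdgeR 4.0.16, limma 3.58.1, TMM factors, filters, the replicate number, each library left out and a muscle score (mean log2 CPM of 31 muscle genes) served as alternatives. Single values were tested by exact permutation over 70 arrangements (SciPy 1.17.1). The study gives 4 mice per group for this transcriptome, but the labels do not tie each library to an animal, so p-values measure the spread between libraries. DESeq2 and edgeR were tested on simulated counts, where false calls were above the nominal share in both. Members and lists were chosen with earlier results of these data known. The text names all members, genes of other mural lists that passed 0.05 or did not overlap at a mean of at least 20 normalized counts, the 3 skeletal muscle genes of highest mean, the 5 genes most like the contractile members and Cd36. Named after their values were seen were Aoc3, Cald1, Mylk, Myl6, Ppp1r12a, Des, Tpm1, Tpm2, Abcc9, Pdgfrb, Srf, Myocd, Jag1, Heyl, Pdgfb, Gsn and the brown adipocyte genes.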

Additional observations from a re-analysis of the deposited data

Results flagged for a closer look

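Each group of 4 was searched on the log2 scale for a library distant from its fellows by Dixon's criterion, which flags about 1 in 20 groups by chance. Of 36 groups, 2 held such a library, beside 1.8 from chance. Myh11 had a log2 normalized count of 6.01 in Cd36KO replicate 2, above the other Cd36KO libraries, which were nearly equal. The Schwann cell genes summed to 405 CPM, or 8.66 on the log2 scale, in Cd36KO replicate 3, against 229 to 244 CPM in the other Cd36KO libraries.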

How the results depend on the processing

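Of 160 estimates for the 10 members under 16 alternatives, 143 kept their direction without newly passing, 7 newly passed and 10 changed sign. Of the 160, 10 (Cnn1, Tagln and Notch3) had no adjusted p and so no side of the threshold. No sign change concerned Acta2, Cnn1, Myl9, Smtn, Mcam or Cspg4. For all changes that follow, the cause was not tested. With TMM factors or the filter of 10 counts, 1 member (Myl9) was called higher. These fits called 298 of 7602 and 284 of 9954 genes in all. EdgeR and limma called 0 of the other mural genes lower, in place of 1, when they called 14 of 9793 and 0 of 9957 genes in all. Tagln turned to 0.15 with the skeletal muscle score, 0.028 with limma and 0.22 under the replicate block, and Rgs5 to 0.16 under the block. Myh11 turned to -0.013 with the muscle score. Replicate numbers 2, 3 and 4, shared by both groups, gave correlations of deviations of -0.127, 0.422 and 0.141. Of these libraries, 3 of 6 correlated best with their own number. With so few shared numbers this cannot tell whether a number marks a pairing of libraries. The block called 219 genes, against 262 in the same 6 libraries without it (a fit added after the data were seen), where 2 other mural genes were lower, Tagln was 0.11 and Rgs5 0.16. Leaving out each library gave 0 to 1 members called higher, 0 to 2 lower, 0 to 1 other mural genes higher and 0 to 3 lower. The 2 members came without WT replicate 1 (345 of 10284 genes called) and the 3 other mural genes without WT replicate 3 (141 of 11838). Over all genes, the fits without 1 library called from 69 of 10170 to 507 of 6215. In these fits Tagln ranged from -0.41 to 0.35, Myh11 from -0.10 to 0.33 and Notch3 from -0.14 to 0.34. The median log2 fold change of the members stayed between -0.20 and 0.29 over all alternatives. At this depth Cnn1, with 2 to 29 counts per library, had no adjusted p in 5 of 16 alternatives.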
